A study of Mus musculus with 6 samples.

Results

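Efferocytosis is the uptake of dying cells by phagocytes, and the 10 genes described here encode receptors for dying cells, the bridging molecules that link such cells to those receptors, and proteins that carry out, promote or restrain the uptake. They were chosen by name, as Mertk, Axl, Gas6, Pros1, Mfge8, Lrp1, Elmo1, Anxa1, Sirpa and Cd47, and all 10 were found among the 15168 genes of the count table. Bulk RNA-sequencing had been carried out on macrophages sorted from full-thickness back skin wounds of female wild-type C57BL/6J mice on Day 3 after wounding. The 3 young samples (A, B and C) came from mice aged 12 weeks and 3 aged samples, lettered alike, from mice aged 24 months. Live cells had been sorted as positive for CD45, CD11b, F4/80 and CD64, with no step to remove Ly6G+ cells. The labels do not state whether each sample came from a separate mouse, so p-values measure only the spread between these samples, which may be technical. Summed transcripts of the 4 sorting proteins lay between 1254 CPM in young A and 1789 CPM in aged A, where CPM is the gene's count scaled to the size of the library. Within this sum Itgam, for CD11b, was higher in aged samples and Adgre1, for F4/80, was lower (log2 fold changes 0.99 and -0.69, edgeR adjusted p = 0.00735 and 0.0292). Total counts per sample ran from 15270103 in aged A to 17927483 in aged C, and 1 count was worth 0.0553 to 0.0701 CPM. Counts of the 10 genes lay between 86 and 18356 per sample, and all 10 genes passed the filter on low counts.

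In efferocytosis, a dying cell exposes phosphatidylserine, which is bound directly by some receptors and through soluble bridging proteins by others. MerTK and Axl are receptor tyrosine kinases of the TAM family, and they bind phosphatidylserine through Gas6 or, for MerTK, also protein S, whereas MFG-E8 bridges it to integrins. LRP1 and ELMO1 act in uptake and in the rearrangement of actin, annexin A1 is a pro-resolving ligand of formyl peptide receptors, and CD47 on a target cell restrains uptake through SIRPα on the phagocyte. In healing wounds, macrophages clear spent neutrophils by this route.

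Among the 10 genes, Axl was the only 1 whose transcript level differed between the ages at an adjusted p under 0.05, and it was lower in aged samples (quasi-likelihood test of edgeR, with p adjusted over 11878 genes by the Benjamini-Hochberg method). Thus 1 of 10 passed, against 17.7% of all tested genes. By direction, 1 of 10 was lower against 7.97% of all genes, and 0 of 10 were higher against 9.73%. No member passed with a change of more than 2-fold, which 8.79% of all genes did. At an unadjusted p under 0.05 the same edgeR test gave 1 higher member, Pros1, where 18.1% of all genes were higher, and 1 lower member, Axl, where 16.5% were lower. At an adjusted p under 0.05, DESeq2 passed 0 higher and 1 lower member, where 21.5% of all genes passed, and limma-voom with sample quality weights passed 1 higher and 2 lower members, where 30.7% did. With the sample letter (A, B or C) as a replicate block in edgeR, Axl did not pass, whereas Mertk and Gas6 passed as lower members. In that fit 17.8% of all genes passed, and the letters were not taken as pairs. Young and aged samples did not overlap for 5 of 10 members, against 38.2% of all genes. Of these 5, Pros1 and Lrp1 were higher in aged samples, where 19.2% of all genes were, and Axl, Anxa1 and Sirpa were lower, where 19.0% of all genes were. The median log2 fold change (aged minus young) was -0.25 over the members and -0.02 over all tested genes. With 10 members, these counts lie near the shares of all genes. Fewer cells of a type and less RNA per cell cannot be told apart in such bulk samples.

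**Figure D1:**
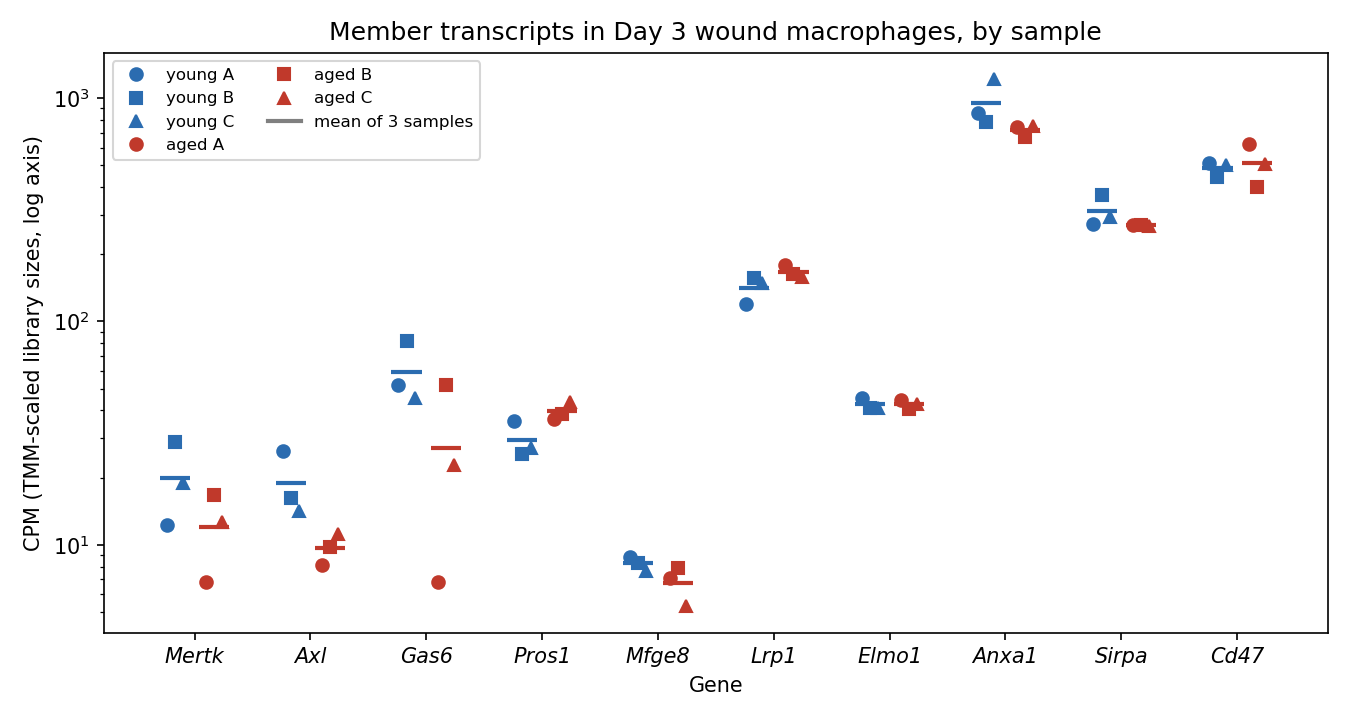
Transcript levels of the 10 genes in each sample, in CPM on a log axis, with circles, squares and triangles for samples A, B and C, blue for young and red for aged, and bars for the mean of 3 samples. Axl was at most 11.2 CPM in the aged and at least 14.2 CPM in the young samples, and Gas6 ran from 6.80 to 52.1 CPM among the aged samples.

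Axl, a TAM receptor that uses Gas6 as its ligand (ENSMUSG00000002602, chr7:25757273-25788706 in mm10, minus strand), was measured at 26.4, 16.2 and 14.2 CPM in young A, B and C and at 8.13, 9.81 and 11.2 CPM in aged A, B and C. Each aged sample was below each young sample, and young A was the highest of all. The mean fell from 18.9 ± 6.57 to 9.70 ± 1.53 CPM (SD, n = 3 per age), a log2 fold change of -0.96 with a standard error of 0.26, a 95% interval from -1.55 to -0.38 and an edgeR adjusted p of 0.0327. The call was lost when any 1 of the 6 samples was left out (edgeR adjusted p from 0.0629 to 0.0795), with log2 fold changes from -1.13 to -0.64, the smallest without young A. It was also lost with the sample letter as a replicate block (log2 fold change -0.92, edgeR adjusted p = 0.0521). Summed mast cell markers (5 of 5 in the table, led by Cpa3) were also highest in young A, at 94.8 CPM, then 46.6 and 25.6 CPM in young B and C. They were at 64.2 CPM in aged A and at 1.02 and 0.741 CPM in aged B and C, where Cpa3, Mcpt4 and Cma1 were at 0. Summed monocyte markers (6 of 6, led by Chil3) were lowest in young A, at 1183 CPM, with 2079 and 2851 CPM in young B and C and 3894, 3153 and 2804 CPM in aged A, B and C. Most of that sum was Chil3, and without it the other 5 markers summed to 541, 944 and 858 CPM in young and to 1084, 567 and 899.8 CPM in aged A, B and C, with overlap. Of the 6, Vcan was the only 1 to pass in edgeR, from 24.3, 25.2 and 38.0 CPM in young to 154, 128 and 101 CPM in aged A, B and C (log2 fold change 2.13, adjusted p = 0.00136), which is 16.7% higher against 9.73% of all genes. Langerhans cell markers (2 of 2, led by Cd207) summed to 14.7, 1.17 and 6.14 CPM in young and to 5.81, 5.73 and 2.41 CPM in aged A, B and C, again highest in young A. Dendritic cell markers (5 of 6 in the table) went another way, with the highest sum in aged A, where Axl was lowest. They summed to 54.7, 21.8 and 16.1 CPM in young and to 93.8, 30.3 and 39.6 CPM in aged A, B and C. The part of any of these cells in the Axl difference was not tested.

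Mertk, the TAM receptor best known for clearance by macrophages (ENSMUSG00000014361, chr2:128698956-128802895, plus strand), was at 12.3, 28.7 and 18.8 CPM in young A, B and C and at 6.80, 16.7 and 12.6 CPM in aged A, B and C. Its ages overlapped, since young A lay below aged B and aged C, and the B sample was the highest of each age. The young mean was 19.95 ± 8.29 CPM and the aged mean 12.0 ± 5.0 CPM (SD, n = 3 per age). Its log2 fold change was -0.72 with a standard error of 0.36 and did not pass (95% interval -1.52 to 0.07, edgeR adjusted p = 0.180). With the sample letter as a replicate block it passed, at -0.73 (edgeR adjusted p = 0.0317). Without young B the estimate was -0.36 and without aged B it was -1.03, and in neither fit did it pass (edgeR adjusted p = 0.554 and 0.0957). Tyro3, the remaining TAM receptor, was not among the genes of the count table.

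Promoter sequences were read for Axl, for its relative Mertk, and for Gas6 and Pros1, which encode the TAM ligands, so that the receptor that passed can be seen beside its partners. RefSeq promoters (GRCm38.p6) were matched for 9 of the 10 members, all but Sirpa. Each sequence gives the 250 bases before the RefSeq start, 5′ to 3′ on the strand of the gene, and no annotated GENCODE exon overlaps these 4 windows. Capitals mark matches on either strand to GGGCGG (GC box) or TTCNNNGAA (GAS element).
Axl, chr7:25788734-25788983, minus strand: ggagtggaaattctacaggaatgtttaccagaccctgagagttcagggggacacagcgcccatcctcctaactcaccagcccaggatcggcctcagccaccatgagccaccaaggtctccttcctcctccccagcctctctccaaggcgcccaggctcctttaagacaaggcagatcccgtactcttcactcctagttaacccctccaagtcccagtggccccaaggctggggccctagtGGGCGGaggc
Mertk, chr2:128698665-128698914, plus strand: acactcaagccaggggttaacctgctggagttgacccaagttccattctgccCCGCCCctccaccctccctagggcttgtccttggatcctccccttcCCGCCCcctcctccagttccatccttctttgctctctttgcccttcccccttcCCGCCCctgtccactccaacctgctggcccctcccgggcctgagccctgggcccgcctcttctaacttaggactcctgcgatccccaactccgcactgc
Gas6, chr8:13494536-13494785, minus strand: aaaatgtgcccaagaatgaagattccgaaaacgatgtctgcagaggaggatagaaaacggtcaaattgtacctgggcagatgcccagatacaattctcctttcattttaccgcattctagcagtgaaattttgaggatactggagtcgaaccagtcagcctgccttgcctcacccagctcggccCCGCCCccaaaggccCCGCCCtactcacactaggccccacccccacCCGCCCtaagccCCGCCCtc
Pros1, chr16:62854057-62854306, plus strand: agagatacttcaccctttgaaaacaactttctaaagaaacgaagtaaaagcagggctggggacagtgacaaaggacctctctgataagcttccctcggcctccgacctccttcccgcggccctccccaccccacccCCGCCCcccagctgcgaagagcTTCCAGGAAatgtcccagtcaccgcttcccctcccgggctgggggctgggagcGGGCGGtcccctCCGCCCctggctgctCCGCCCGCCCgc
The Axl window held 1 GC box, which began 10 bases before the start, and the Mertk window held 3. Gas6 had 4 and Pros1 had 5, some of which overlap, and the Pros1 window also held a GAS match. Of the 9 matched members, 8 had a GC box, whereas 33.0% of 32544 RefSeq promoters of this length did, and Anxa1 had 0. With either start of Elmo1 counted, a GAS match was found in 3 of 9 members against 7.04% of all promoters. The Elmo1 matches lie in the window of start 2, which overlaps 2 annotated GENCODE exons, and the Anxa1 and Cd47 windows overlap exons too. Members were counted per gene over any start, whereas the share of all promoters counts each promoter. Of the other motifs searched on both strands, which were TGANTCA for AP-1, CACGTG for the E-box, CCAAT, and TGACGTCA for the cyclic AMP element, 0 were found in the 9 members, and they were in 6.73%, 6.03%, 33.8% and 1.55% of all promoters. The GC content of the windows was 60.0% for Axl, 63.6% for Mertk, 54.8% for Gas6 and 64.4% for Pros1, above the median of 52.4% over all promoters. A match describes the letters only, and binding was not measured.

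Gas6, the bridging ligand of the TAM receptors (ENSMUSG00000031451, chr8:13465374-13494491, minus strand), covered a wider fold range among the aged samples than any other member. It was at 51.7, 81.5 and 45.4 CPM in young A, B and C and at 6.80, 52.1 and 22.8 CPM in aged A, B and C. Aged A and aged C lay below every young sample, while aged B lay within the young range. The young mean was 59.6 ± 19.3 CPM, and the aged mean was 27.2 ± 23.0 CPM (SD, n = 3 per age). The log2 fold change was -1.13, the largest estimate among the members, but its standard error was 0.53 and it did not pass (95% interval -2.31 to 0.06, edgeR adjusted p = 0.163). Without aged B it was -1.99 and passed (edgeR adjusted p = 0.0209), and without aged A it was -0.67 (adjusted p = 0.224). Over all 6 fits that left out a sample, the edgeR adjusted p lay between 0.0209 and 0.405. With the sample letter as a replicate block, Gas6 passed at -1.45 (edgeR adjusted p = 0.0387).

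Other transcripts also set the aged samples apart. Summed markers of resident macrophages (7 of 7 in the table, led by Cbr2) were at 722, 855 and 712 CPM in young A, B and C and at 242, 828 and 378 CPM in aged A, B and C. This is the order that Gas6 and Mertk took among the aged samples, lowest in A and highest in B. Without Cbr2 the other 6 markers summed to 509, 587 and 475 CPM in young A, B and C. In aged A, B and C they summed to 184, 648 and 294 CPM, with aged B above every young sample. The list was mixed between the ages, with a median log2 fold change of -0.50 over the 6 markers tested. Cbr2 and Fcrls fell in edgeR (33.3%, against 7.97% of all genes) and 0 rose (against 9.73%), whereas Folr2 at -0.97, Mrc1 at -0.04, and Lyve1 and Cd163 at 1.46 each did not pass. Fibroblast markers (10 of 10, led by Col3a1) summed to 29.9, 25.6 and 42.5 CPM in young and to 13.2, 125 and 38.5 CPM in aged A, B and C. Keratinocyte markers (8 of 8, led by Krt14) summed to 143 CPM in aged B and to at most 9.74 CPM in any other sample. Krt14 alone was at 80.2 CPM in aged B, whereas Dsp was at 0 in every other sample. Endothelial markers (6 of 6, led by Kdr) stayed between 1.54 and 6.24 CPM. Fibroblast, keratinocyte and endothelial transcripts were counted although the cells had been sorted as positive for CD45. The part of these cells or of resident macrophages in the values of Gas6 and Mertk was not tested.

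**Figure D2:**
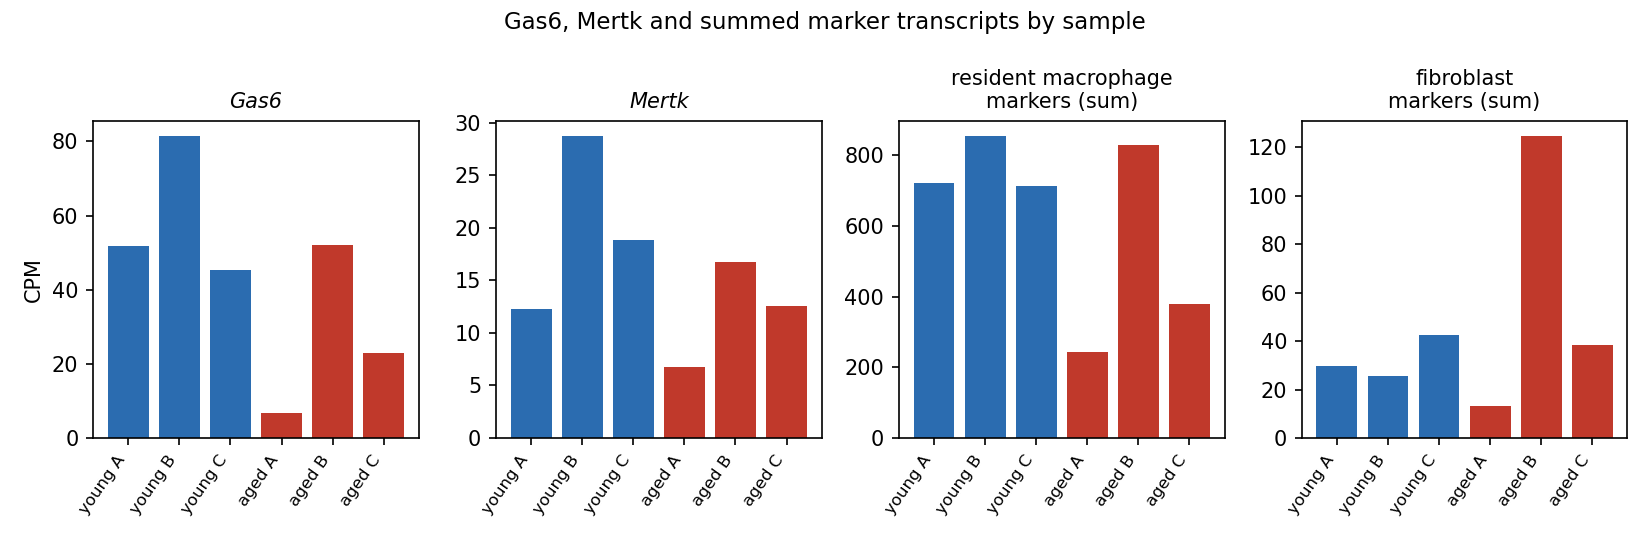
Gas6, Mertk and the summed markers of resident macrophages and fibroblasts in each sample, as bars of CPM from 0, with blue for young and red for aged. Aged A was the lowest sample in all 4 panels, and aged B was the highest aged sample.

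Pros1, which encodes protein S, the other TAM ligand and an anticoagulant of plasma (ENSMUSG00000022912, chr16:62854307-62929347, plus strand), had the opposite direction. It was at 35.8, 25.6 and 27.1 CPM in young A, B and C and at 36.6, 38.5 and 43.7 CPM in aged A, B and C. The ages did not overlap, but young A and aged A differed by less than 1 CPM. Pros1 averaged 29.5 ± 5.51 CPM in the young and 39.6 ± 3.68 CPM in the aged group (SD, n = 3 per age), and the log2 fold change of 0.42 (standard error 0.18) did not pass (edgeR adjusted p = 0.127). It passed without young A, at 0.59 (edgeR adjusted p = 0.0381), and in limma-voom, at 0.53 (adjusted p = 0.0278). In the other 5 fits that left out a sample, the edgeR adjusted p was between 0.141 and 0.334.

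Mfge8, which encodes the bridge to integrins (ENSMUSG00000030605, chr7:79133768-79149061, minus strand), was low throughout. It ranged from 7.66 to 8.79 CPM in young and from 5.31 to 7.90 CPM in aged samples, and the ages overlapped. The log2 fold change of -0.29 (standard error 0.24) did not pass in the edgeR test (adjusted p = 0.410). Without aged C, the lowest sample, it was -0.14 (adjusted p = 0.775 in edgeR).

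Within a sample, the balance of ligands can be read as a log2 ratio of counts, in which library size cancels, and in the difference between ages gene length cancels too. The log2 ratio of Gas6 to Pros1 was 0.53, 1.67 and 0.74 in young A, B and C and -2.43, 0.44 and -0.94 in aged A, B and C. Each aged sample was below each young sample, and Gas6 counts exceeded Pros1 counts in all 3 young samples and in aged B. The mean was 0.98 ± 0.61 in young and -0.98 ± 1.43 in aged samples, a difference of -1.96 (exact permutation test, two-sided, p = 0.1, which is the lowest possible with 3 against 3 samples, and 0.5 after Benjamini-Hochberg adjustment over 5 ratios). Leaving out aged A gave -1.23, and leaving out aged B gave -2.67. A test of this size cannot reach 0.05.

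The receptor ratio showed no such separation. Axl to Mertk averaged -0.04 ± 1.02 in young and -0.23 ± 0.52 in aged samples on the log2 scale, and its difference of -0.19 turned to 0.39 without young A and to 0.09 without aged B (exact permutation p = 0.9 with all samples). Pros1 to Mertk averaged 0.64 ± 0.86 in young and 1.81 ± 0.62 in aged samples, a difference of 1.17 in which the ages overlapped (exact permutation p = 0.2). The difference in Gas6 to Axl was -0.60 (exact permutation p = 0.7) and became 0.06 without aged A.

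**Figure D3:**
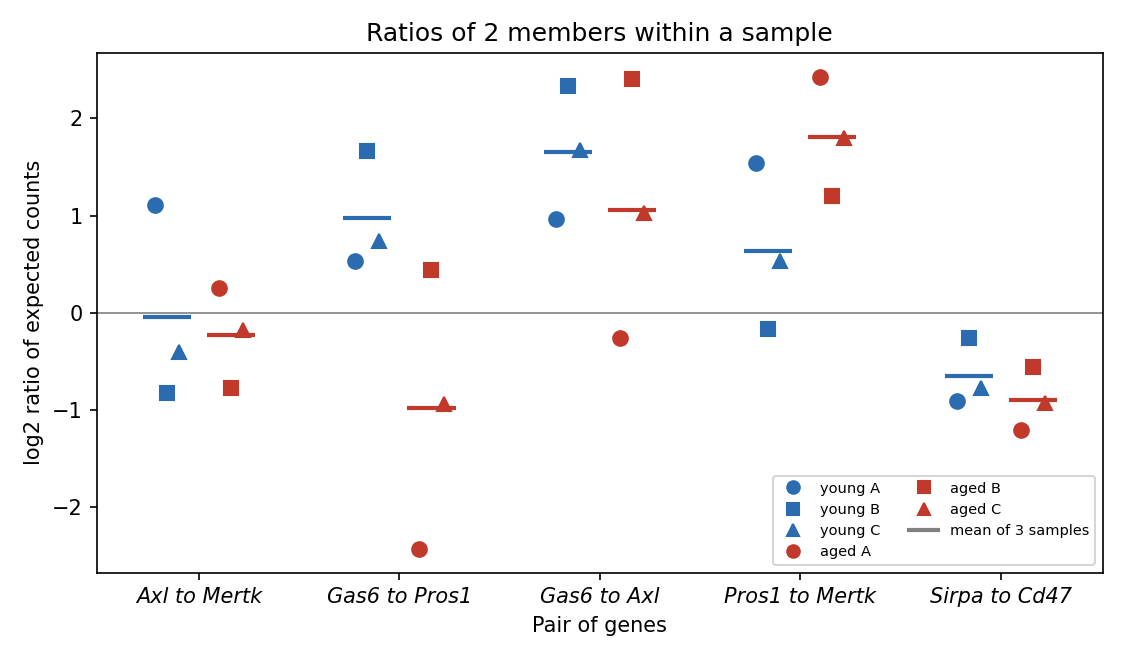
Log2 ratios of counts of 2 members within each sample, with symbols for samples A, B and C, blue for young, red for aged and bars for the mean of 3 samples. Only the Gas6 to Pros1 ratio separated the ages, with the lowest young sample at 0.53 and the highest aged sample at 0.44.

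Lrp1, a large endocytic receptor that takes part in uptake through calreticulin on the dying cell (ENSMUSG00000040249, chr10:127538161-127621149, minus strand), was at 119, 156 and 149 CPM in young A, B and C and at 178, 162 and 158 CPM in aged A, B and C. Aged samples lay above all young samples, although young B and aged C were 156 and 158 CPM. Its log2 fold change of 0.23 (standard error 0.16) did not pass (95% interval -0.13 to 0.60, edgeR adjusted p = 0.343). Without young A, the lowest sample, the estimate was 0.13 (adjusted p = 0.619 in edgeR). Elmo1, which acts with Dock proteins to activate Rac during engulfment (ENSMUSG00000041112, chr13:20090596-20608354, plus strand), was the steadiest member, between 40.7 and 45.2 CPM in all 6 samples. It averaged 42.5 ± 2.39 CPM in the young and 42.7 ± 1.90 CPM in the aged group (SD, n = 3 per age). The log2 fold change was 0.01 with a 95% interval from -0.33 to 0.34 (edgeR adjusted p = 0.985), and its sign changed with the samples used.

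Anxa1, the annexin that signals through formyl peptide receptors (ENSMUSG00000024659, chr19:20373428-20390945, minus strand), was at 854, 784 and 1212 CPM in young A, B and C and at 746, 671 and 747 CPM in aged A, B and C. The aged samples lay below the young ones, and young C stood above the rest. The average was 950.2 ± 230 CPM for the young and 721 ± 43.6 CPM for the aged group (SD, n = 3 per age), and the log2 fold change of -0.40 (standard error 0.20) did not pass (edgeR adjusted p = 0.186). In limma-voom it passed at -0.52 (adjusted p = 0.0436), and without young C the edgeR estimate was -0.18 (adjusted p = 0.592). Receptors of annexin A1 differed between the ages in the edgeR test. Fpr1 rose from 80.1 ± 15.2 to 260.2 ± 55.6 CPM (1.70 on the log2 scale, adjusted p = 0.00223 in edgeR), and Fpr2 from 28.4 ± 3.50 to 70.2 ± 24.5 CPM (1.31, adjusted p = 0.0101 in edgeR). Of 11 tested annexins, S100 partners and receptors, 4 rose and 0 fell in the edgeR test, beside 9.73% higher and 7.97% lower among all genes, and the other 2 that rose were S100a11 and Anxa11, at log2 fold changes of 0.90 and 1.06. Anxa4 had the lowest estimate there, at -0.52, and did not pass (adjusted p = 0.0720 in edgeR). Formyl peptide receptors are also made by neutrophils, and neutrophil markers (13 of 15 in the table, led by S100a9) summed to 717, 1217 and 1170 CPM in young A, B and C and to 1583, 926 and 1559 CPM in aged A, B and C. Of 12 tested, Cd177, Cxcr2, Lcn2 and Retnlg rose (33.3%, against 9.73% of all genes) and 0 fell (against 7.97%) in edgeR, while S100a9 had a log2 fold change of 0.20 and Ly6g of 0.05 without passing. Their part in the Fpr1 and Fpr2 differences was not tested.

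Sirpa, which encodes the inhibitory receptor of phagocytes (ENSMUSG00000037902, chr2:129592835-129632229, plus strand), was at 272, 369 and 293 CPM in young A, B and C and at 270, 271 and 267 CPM in aged A, B and C. The aged samples lay close together just below the lowest young sample. The log2 fold change was -0.21 with a standard error of 0.17 (edgeR adjusted p = 0.413). Without young B, the highest sample, it was -0.06 (adjusted p = 0.852 in edgeR). The gene Cd47, for the ligand of SIRPα (ENSMUSG00000055447, chr16:49800533-49915011, plus strand), was at 511, 442 and 499.8 CPM in young and at 623, 399 and 507 CPM in aged A, B and C. The aged samples spanned the young range on both sides, and its log2 fold change, 0.07 with a standard error of 0.19 (edgeR adjusted p = 0.814), became -0.09 without aged A. Sirpa to Cd47 within a sample differed by -0.25 on the log2 scale between the ages, with overlap (exact permutation p = 0.4). That difference became -0.06 without young B, -0.09 without aged A and -0.42 without aged B. Estimated counts were not whole (by over 0.005) in 6 of 6 samples for Sirpa and Anxa1 and in 5 of 6 for Cd47, so reads shared with other transcripts may enter these values, whereas Axl, Mertk, Gas6, Pros1, Mfge8 and Elmo1 had whole counts in every sample. Exons of Gas6 and Elmo1 share 34 and 403 bases with genes on the opposite strand, Tmem255b and Gm32036, neither of which was in the count table, and whether counting used the strand is not stated.

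**Figure D4:**
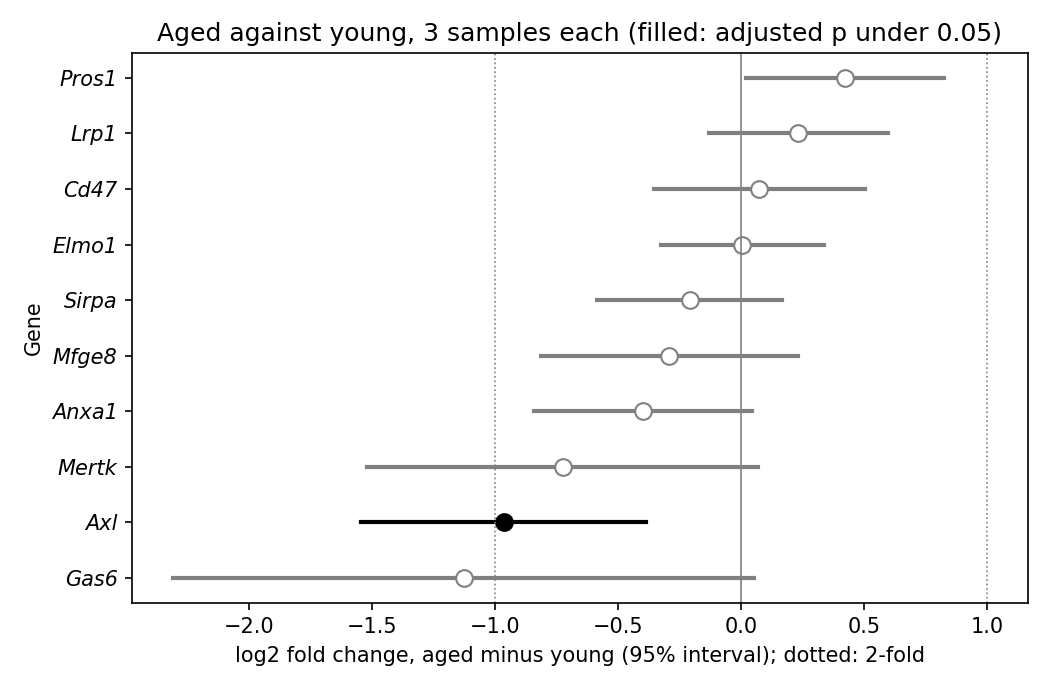
Log2 fold change of each member (aged minus young, 3 samples each) as points, with 95% intervals as lines and 2-fold changes as dotted lines. The filled point marks Axl at -0.96, the only member with an edgeR adjusted p under 0.05, and the Gas6 interval runs from -2.31 to 0.06.

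Levels were compared between members per length, as CPM per kb of exon, with exon lengths from an older annotation release than the authors counted on. Anxa1 was the highest, at 287 CPM per kb over the 6 samples, and its lowest sample (230) stood above the highest of any other member. Cd47 followed at 79.2 and Sirpa at 59.1 CPM per kb, and the ranges of these 2 overlapped. A gap then separated them from Gas6 at 17.0 CPM per kb, whose range of 2.67 to 32.0 covered those of Lrp1 at 8.68 and Pros1 at 8.46. Mertk, Elmo1, Axl and Mfge8 came last, at 3.69, 3.38, 2.85 and 1.60 CPM per kb, and each member from Gas6 on overlapped its neighbour in this order. Between the ages, Mertk went from rank 7 to 8 and Axl from 8 to 9, with Elmo1 moving from 9 to 7. Lrp1 and Pros1 exchanged ranks 5 and 6.

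The genes with profiles closest to the TAM receptors were found by Pearson's r of log2 CPM over the 6 samples, given as a description, since r includes the difference between ages. For Mertk they were Clec2i, Gm15987 and Rif1, each at r = 0.99 (n = 6), with log2 fold changes of -0.82, -0.61 and -0.48, none of which passed in edgeR. For Axl they were Impdh2 at r = 0.98, and Ptrh2 and Slfn5 at r = 0.97 (n = 6). Of these, Ptrh2 and Slfn5 fell in aged samples, by 0.94 and 0.87 on the log2 scale (edgeR adjusted p = 0.0431 and 0.0160). As many as 87 genes reached an r above 0.95 with Mertk and 14 with Axl.

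Beyond the members, 115 of 125 listed genes of the pathway were tested, and 23 were higher and 11 lower in aged samples (edgeR adjusted p under 0.05), with a median log2 fold change of 0.24. These are 20% and 9.57%, beside the 9.73% higher and 7.97% lower among all tested genes, which are also the background of each list that follows. Without young B, young C or aged C these became 12, 4 and 8 higher and 5, 1 and 1 lower, and without aged A 7 were lower. Fewer of all genes passed in those fits too, at 6.29%, 1.78%, 4.45% and 11.3% in the same order, against 17.7% with all samples. The pathway lists, with that of the annexins and their receptors, were chosen with earlier results of these data known. Their shares beside those of all genes are therefore a description and not a test. Among 13 other receptors, 3 rose and 1 fell. Havcr2, which encodes the phosphatidylserine receptor TIM-3, rose from 97.1 ± 48.2 to 319 ± 25.7 CPM (log2 fold change 1.71, edgeR adjusted p = 0.00796), and the scavenger receptor genes Olr1 and Cd36 rose by 1.31 and 0.83 on the log2 scale. Trem2, a lipid receptor, fell from 362 ± 85.0 to 150.4 ± 15.9 CPM (log2 fold change -1.27, edgeR adjusted p = 0.00627). Of 10 other bridging molecules and opsonins, 2 rose and 3 fell. Thbs1, which encodes thrombospondin-1, a bridge to CD36 that also binds CD47, rose from 3854 ± 2701 to 16855 ± 1878 CPM (log2 fold change 2.13, edgeR adjusted p = 0.0115), and Edil3, a relative of Mfge8, rose by 1.25. C1qa, C1qb and C1qc, the chains of the opsonin C1q, fell by 1.09, 1.04 and 0.92 on the log2 scale. Thbs1 was also the only 1 of 4 CD47 ligands and SIRP relatives to pass, and Sirpb1b had the smallest estimate there, at 0.02.

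Of 17 engulfment genes, 1 rose, the Rac activator Vav3 (log2 fold change 0.96, edgeR adjusted p = 0.0152), and 0 fell, with Trio at the lowest estimate of -0.61 (adjusted p = 0.187). Of 15 phagosome maturation genes, Rab5a and Uvrag rose by 0.61 and 0.64 and Dnase2a fell by 0.57 on the log2 scale, and Rubcn had the lowest estimate, at -0.69, without passing. Of 11 regulators of TAM receptors and their ligands, 5 rose and 1 fell. Adam10, a protease of the family that sheds receptors, rose from 54.2 ± 12.5 to 100.7 ± 8.34 CPM (log2 fold change 0.90, edgeR adjusted p = 0.0156), and Socs1 and Socs3, which restrain cytokine signalling, rose by 1.65 and 1.73. Ifnar1 rose by 0.64. The gene Vkorc1, whose product recycles the vitamin K that Gas6 and protein S need for carboxylation, fell from 20.5 ± 3.24 to 9.08 ± 2.57 CPM (log2 fold change -1.18, edgeR adjusted p = 0.0138). Of 8 genes of find-me signals, 2 rose, Sphk1 by 1.57 and P2ry2 by 0.80, and Cx3cr1, the receptor of fractalkine, fell by 1.87. Of 9 inhibitory signalling genes, Pecam1 and Cd24a rose by 1.69 and 1.0, whereas Qpct, which encodes a glutaminyl cyclase, and Ptpn6, which encodes the phosphatase SHP-1 recruited by SIRPα, fell by 1.36 and 1.08. Of 18 genes that handle engulfed cargo, 2 rose and 2 fell. These were Slc7a11 and Odc1, higher by 2.39 and 1.12, and Apoe and Npc2, which fell by 0.86 and 0.68.

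**Figure D5:**
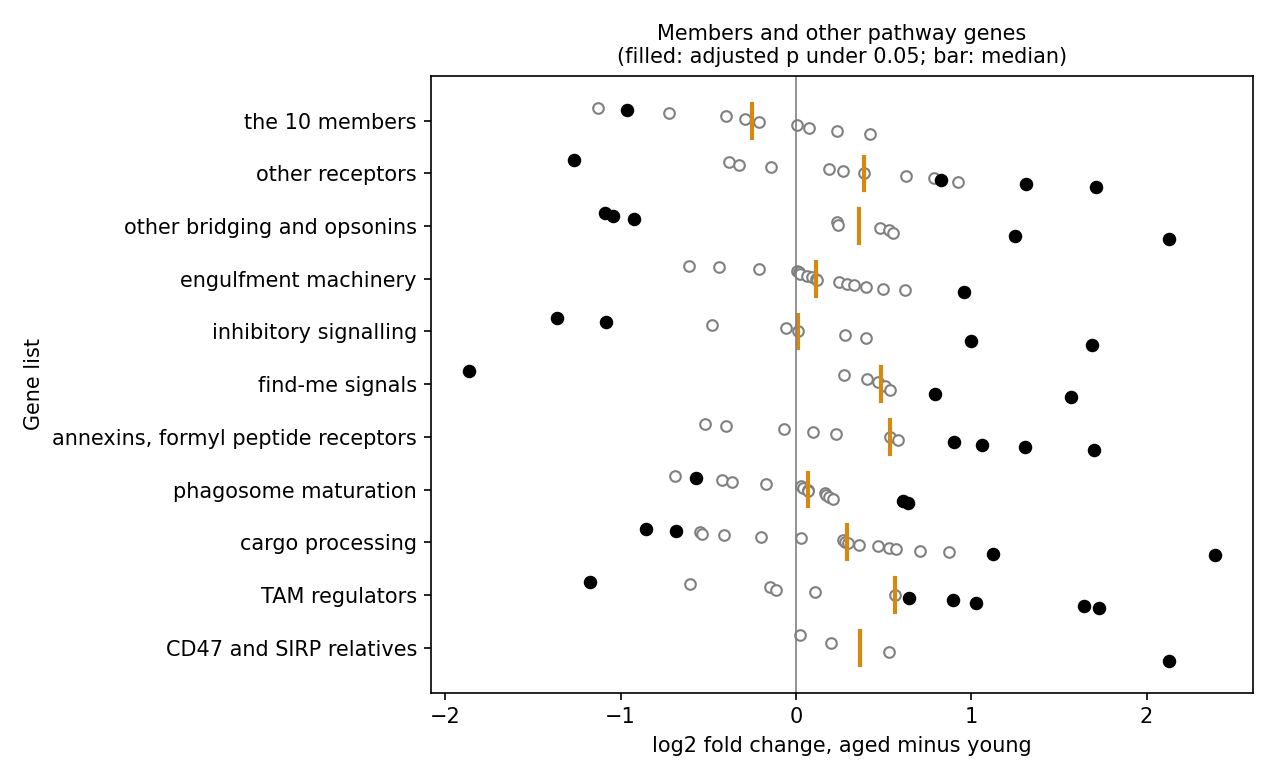
Log2 fold changes (aged minus young) of the 10 members and of the other pathway genes by list, with filled points for edgeR adjusted p under 0.05 and bars for the median of each list. The members hold 1 filled point, on the lower side, and points of the other lists run from Cx3cr1 at -1.87 to Slc7a11 at 2.39. The list of CD47 ligands and SIRP relatives lies above 0, with its lowest point, Sirpb1b, at 0.02. Each of the remaining lists holds points on both sides of 0.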

How the data were processed

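Per the labels and the study's methods, the authors aligned reads with STAR 2.7.3a to mm10, quantified Ensembl transcripts in Partek and deposited expected counts per gene without normalisation, for genes totalling at least 10 counts over 6 samples. A further deposited table, which holds the authors' scaled counts, p-values and fold changes, was not used. Expected counts were rounded and tested in R 4.3.3 with edgeR 4.0.16 (TMM, filterByExpr, quasi-likelihood test of aged against young, Benjamini-Hochberg adjustment over 11878 genes). A gene passed at an adjusted p under 0.05. Replicates of an age differed by more than sampling noise. DESeq2 1.42.0 and limma 3.58.1 (voom) were alternatives, as were DESeq2 size factors, 2 other count filters, a block for the set letter and fits without each sample in turn. Members and lists were chosen with earlier results of these data known. Named genes were the members, of each pathway list the highest, the lowest and up to 3 others that passed, of each marker list its most abundant gene, and the 3 genes most like Mertk and Axl by r. Itgam, Adgre1, Socs1 and the other marker genes named were added after their values were seen, and 1 gene that the rule names is not reported here. Exon lengths came from GENCODE M21, an older release than the Ensembl transcripts of the authors. The test was checked on simulated data. Plots used matplotlib 3.10.9.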

Additional observations from a re-analysis of the deposited data

How the results depend on the processing

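Axl was the only member called, and lower in aged samples, in DESeq2 (adjusted p = 0.00925) and in edgeR with DESeq2 size factors, without a filter on low counts or with at least 10 counts in every sample (edgeR adjusted p from 0.0281 to 0.0374). limma-voom passed 1 higher member (Pros1) and 2 lower members (Axl and Anxa1), in a fit in which 30.7% of all genes passed. Leaving out a sample gave 0 to 1 higher and 0 to 1 lower members, and the lower member, without aged B, was Gas6. Fewer samples remain in those fits, in which 1.78% (without young C) to 22.3% (without young A) of all genes passed. For the other pathway genes, leaving out a sample, chosen after seeing the data, gave 4 to 30 higher and 1 to 13 lower, the fewest and most higher in the same fits as for all genes. Elmo1 changed sign with at least 10 counts in every sample (-0.0066) and ran from -0.0227 to 0.0565 when a sample was left out, and Cd47 ran from -0.0923 to 0.237. The log2 ratio difference of Axl to Mertk ran from -0.58 to 0.39 and that of Gas6 to Axl from -1.27 to 0.0593, and the cause was not tested. Adding 0.5 counts moved no ratio across 0. With the set letter as a replicate block, 2 lower members passed, Mertk (adjusted p = 0.0317) and Gas6 (0.0387), and Axl had an edgeR adjusted p of 0.0521. Deviations of same-letter samples had correlations of 0.18 for A, -0.02 for B and 0.11 for C, and not every sample was closest to its own letter, so the letters were not taken as pairs. With 3 samples per age, estimates as wide as that of Gas6 do not show that ages were alike.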
